A study of Mus musculus with 11 samples.

Results

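Coronins are WD-repeat proteins that bind filamentous actin. The type I members act on the branching of filaments by the Arp2/3 complex and on the turnover of old filaments by cofilin, largely by bringing Slingshot phosphatases to the filament. In endothelial cells this machinery drives the sheet-like protrusions with which sprouting vessels advance. The mouse genome holds 7 coronin genes, and all 7 were chosen by name: the type I genes Coro1a, Coro1b, Coro1c and Coro6, the type II genes Coro2a and Coro2b, and Coro7, whose protein carries a tandem pair of propellers. They are 7 of 55359 genes in the count files, and all 7 were among the 17050 genes that passed the filter on low counts. The family was picked because Coro1a had one of the lowest p-values between OSM and PBS, so every OSM against PBS value of the members given here is a description and is not a test.

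The cells were retinal vascular endothelial cells of C57BL/6 mice in the model of oxygen-induced retinopathy (OIR), in which pups kept in high oxygen lose central retinal capillaries and then grow pathological vessels. All 11 mice carried this disease model. At postnatal day (P) 12, 5 mice received an intravitreal injection of 0.5 µL of oncostatin M (OSM) at 100 ng/µL, a cytokine that signals through the gp130 receptor subunit, and 6 mice received 0.5 µL of PBS. This amount is that of the labels and of the study's methods. The study's results text gives the OSM dose in pg where this amount comes to ng. At P17 the cells were sorted as CD31+ and CD45-, and each library holds the cells of both retinas of 1 mouse. The labels give each mouse a single treatment, while the study's methods also speak of PBS given to the opposite eye, and which holds for these mice is not given in the sources used here. The mice came from 3 litters, each 1 OIR run: litters 1 and 2 held 2 OSM and 2 PBS mice each, and litter 3 held 1 OSM and 2 PBS mice. Total reads on genes ranged from 28471487 to 56033479 in OSM mice and from 26697990 to 35151928 in PBS mice. The 12 endothelial markers had reads in every mouse, and their summed level was 16829 to 21494 CPM (reads per 1000000 reads of the library) in OSM mice and 16115 to 20198 CPM in PBS mice. Levels in CPM are scaled by the trimmed mean of M-values (TMM) of the tested genes, and without molecular identifiers the reads are not independent molecules.

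The promoter sequence is shown for Coro1a, the member with the largest difference among those with reads in every mouse, and for Coro1c, an abundant member with a log2 fold change near 0. RefSeq on GRCm38.p6 gave windows for 6 of the 7 members, 9 in all, and Coro1b was not matched. Each line below is the 250 bases before an annotated start, 5′ to 3′ on the strand of the gene, and capitals mark GGAA on either strand, the core that ETS factors of endothelial and blood lineages bind.
Coro1a first start, chr7:126704817-126705066 (−): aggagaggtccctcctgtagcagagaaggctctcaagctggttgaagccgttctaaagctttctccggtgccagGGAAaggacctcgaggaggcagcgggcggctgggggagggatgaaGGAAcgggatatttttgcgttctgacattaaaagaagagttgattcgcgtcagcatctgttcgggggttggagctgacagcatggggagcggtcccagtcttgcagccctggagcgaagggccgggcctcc
Coro1a second start, chr7:126704221-126704470 (−): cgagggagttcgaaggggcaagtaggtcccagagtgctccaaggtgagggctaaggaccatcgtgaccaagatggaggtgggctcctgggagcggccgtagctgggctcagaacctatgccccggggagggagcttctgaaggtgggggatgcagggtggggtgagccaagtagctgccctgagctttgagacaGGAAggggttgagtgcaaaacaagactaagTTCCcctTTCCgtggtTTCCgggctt
Coro1c, chr5:113908707-113908956 (−): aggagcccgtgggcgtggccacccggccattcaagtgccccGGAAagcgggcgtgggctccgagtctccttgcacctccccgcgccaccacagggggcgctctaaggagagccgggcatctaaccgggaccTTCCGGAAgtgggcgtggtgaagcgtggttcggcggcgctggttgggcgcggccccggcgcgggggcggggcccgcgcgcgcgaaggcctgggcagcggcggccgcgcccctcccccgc
GGAA, searched on both strands, occurred 2 and 4 times in the windows of Coro1a and 3 times in that of Coro1c. At least 1 match stood in all 9 windows of the members and in 93.4% of 32851 windows of the same length. The GC content was 58.8% and 60.0% for Coro1a and 76.8% for Coro1c. The palindrome TTCNNNGAA, the letters of the STAT element, stood in 0 of the 9 windows and in 7.02% of all windows, which says only that these letters are not in these windows.

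Per length, Coro1b and Coro1c made up most of the family. Coro1b, which sits at the leading edge of moving cells, had a mean level of 69.5 ± 7.33 CPM per kb of merged exons (SD, n = 11 mice). Coro1c, a broadly expressed type I coronin, reached 48.3 ± 6.80 CPM per kb. These 2 genes held 51.1% and 35.5% of the summed level of the 7 members. The shares depend on the length used and were computed with merged exons only. Coro7, a coronin of the Golgi apparatus, reached 7.20 ± 2.32 CPM per kb, Coro1a, best known from leukocytes, 6.83 ± 3.59 CPM per kb, and Coro2b, enriched in the nervous system, 4.26 ± 1.30 CPM per kb. Coro2a, at 0.0611 ± 0.143 CPM per kb, and Coro6, a muscle coronin, at 0.0136 ± 0.0241 CPM per kb, stood at the bottom, each with reads in 3 of the 11 mice.

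**Figure D1:**
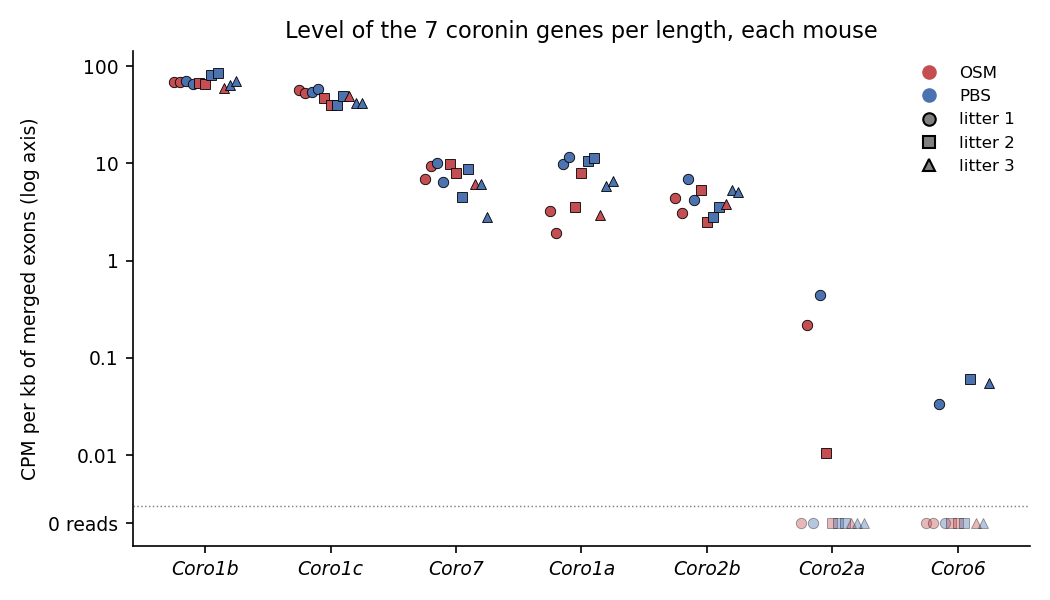
Level of each coronin gene in CPM per kb of merged exons on a log axis, 1 point per mouse, coloured by treatment and shaped by litter, with mice at 0 reads drawn below the dotted line. Coro1b and Coro1c lie above the others in all 11 mice, Coro7, Coro1a and Coro2b share a middle band, and Coro2a and Coro6 have reads in 3 mice each.

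The order of these levels was tested within mice by an exact permutation test over all 2048 sign flips of the log2 ratio, two-sided, adjusted over the 6 neighbour pairs. Coro1b was above Coro1c in 11 of 11 mice (mean log2 ratio 0.53 ± 0.27, SD; adjusted p = 0.00195). Coro1c was above Coro7 in 11 of 11 mice by 2.82 ± 0.50, and Coro2b was above Coro2a in 11 of 11 mice by 7.67 ± 2.12, both with the same adjusted p, which rests on the smallest p these 11 mice can give (0.000977). Coro7 and Coro1a did not differ beyond their spread (log2 ratio 0.22 ± 1.14, higher in 7 of 11 mice; exact adjusted p = 0.663), nor did Coro1a and Coro2b (0.52 ± 1.00, 7 of 11 mice; exact adjusted p = 0.174) or Coro2a and Coro6 (exact adjusted p = 0.719). The step between Coro1b and Coro1c depended on the length: with the longest annotated transcript the levels were 107 and 100.1 CPM per kb (exact adjusted p = 0.393), and with the canonical transcript 157 and 146 CPM per kb (exact adjusted p = 0.296). With the longest transcript Coro2b ranked above Coro1a, at 9.24 and 9.07 CPM per kb (exact adjusted p = 0.632). Without OSM mouse 2 or without OSM mouse 5, Coro1a ranked above Coro7, and 4 of the 6 neighbour pairs passed in place of 3.

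Coro1a was the member that differed most between the treatments among those with reads in every mouse. In litter 1 it stood at 13.3 and 7.92 CPM in the OSM mice and at 40.2 and 47.2 CPM in the PBS mice. In litter 2 it stood at 14.6 and 32.4 CPM against 43.1 and 46.0 CPM, and in litter 3 at 12.1 CPM in the OSM mouse against 23.9 and 26.8 CPM. The OSM mice were thus below the PBS mice of their own litter in each of the 3 litters, a pattern that 0.845% of the genes tested had. Over all litters the groups overlapped: OSM mouse 6, at 32.4 CPM, was above both PBS mice of litter 3, and the other 4 OSM mice were below every PBS mouse. The means were 16.1 ± 9.45 CPM (SD, n = 5) and 37.9 ± 10.0 CPM (SD, n = 6), and reads per mouse ran from 273 to 1602.

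**Figure D2:**
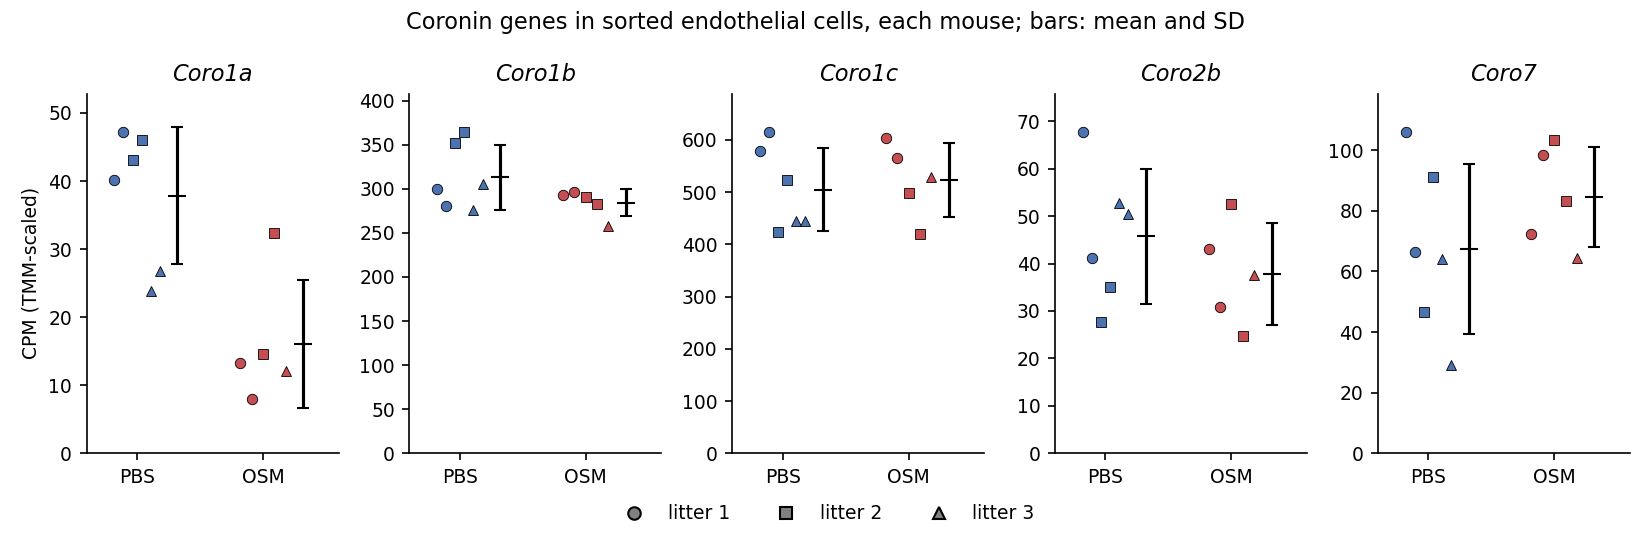
CPM of the 5 coronin genes with reads in every mouse, 1 point per mouse with litters by shape, beside the mean and SD of each group, each axis from 0. For Coro1a 4 of 5 OSM mice lie below all PBS mice and OSM mouse 6 at 32.4 CPM does not, and the groups overlap in the other 4 panels.

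With litter as a term, the log2 fold change of Coro1a was -1.37 (SE 0.291), a level 0.387 times that of PBS. It had the rank 8 of 17050 genes by p, with 7 genes lower. By litter the log2 difference was -2.08, -1.03 and -1.06. None of the 7 members passed an adjusted p of 0.05 in edgeR's quasi-likelihood test, and neither did any of all genes tested (0%), where the lowest adjusted p was 0.920. At an unadjusted p under 0.05 the counts were 1 of 7 members, which is Coro1a itself, and 846 of 17050 genes. Coro1a was called by DESeq2 (adjusted p = 0.000873), which called 0.763% of 22014 genes, and by edgeR without the filter on low counts (adjusted p = 0.00589), which called 0.225% of 28940 genes. These adjusted p-values come from the contrast that chose the gene.

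The other members differed less. Coro1b was at 258 to 297 CPM in OSM mice (median 291) and at 276 to 364 CPM in PBS mice (median 303), with a log2 fold change of -0.15 (SE 0.0795). The highest Coro1b values were those of the PBS mice of litter 2, at 352 and 364 CPM, and the difference by litter was 0.03, -0.32 and -0.17. Coro1c was at 420 to 604 CPM in OSM mice (median 529) and at 424 to 615 CPM in PBS mice (median 484), with a log2 fold change of 0.04 (SE 0.0843). Its ranges were nearly congruent, and the difference by litter was -0.03, -0.04 and 0.25.

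Coro2b was at 24.7 to 52.5 CPM in OSM mice (median 37.5) and at 27.8 to 67.7 CPM in PBS mice (median 45.8), with a log2 fold change of -0.21 (SE 0.256). Its sign was not the same in every litter, at -0.53, 0.21 and -0.46. Coro7 was at 64.6 to 103 CPM in OSM mice (median 83.3) and at 29.3 to 106 CPM in PBS mice (median 65.4), with a log2 fold change of 0.28 (SE 0.251). The groups overlapped in both genes, and Coro7 differed by 0.01, 0.51 and 0.57 in the 3 litters.

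**Figure D3:**
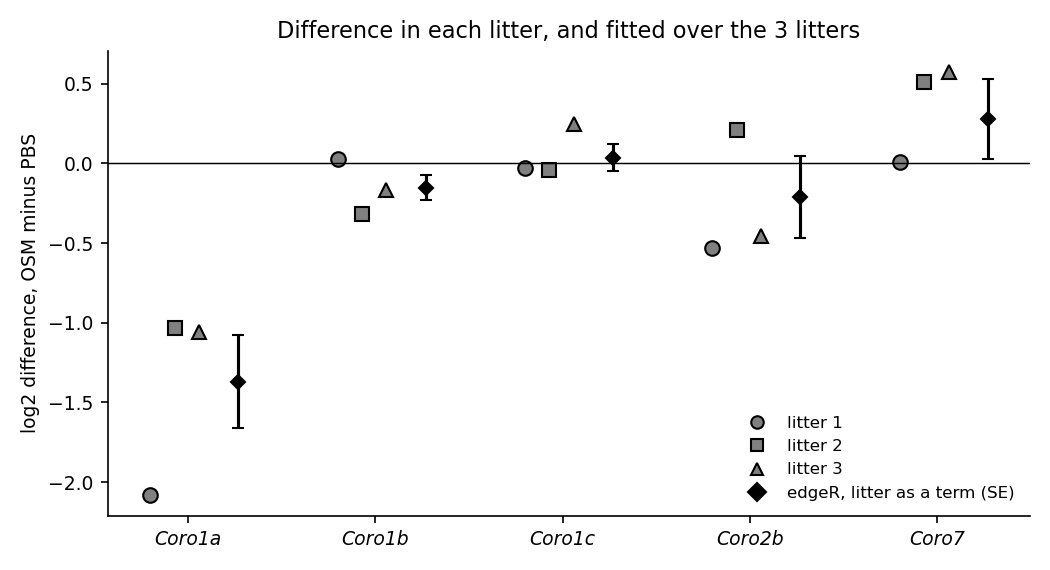
The log2 difference OSM minus PBS of 5 coronin genes in each litter (grey shapes) and fitted by edgeR with litter as a term (diamonds, bars SE). All 3 litters lie at or below -1.03 for Coro1a, and the litter values of the other members run from -0.53 to 0.57.

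The remaining pair of genes was barely detected. Coro2a, a type II coronin found in a corepressor complex and at focal adhesions, had 48 reads in OSM mouse 2, 92 in PBS mouse 4, 2 in OSM mouse 5 and 0 in the other 8 mice. Coro6 had 0 reads in the 5 OSM mice and 5, 12 and 10 reads in PBS mice 3, 8 and 11, with 0 in the other 3. The PBS mice without reads matched the OSM mice, and no fold is given for either gene.

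As a share of the family's summed level per kb of merged exons, Coro1a held 3.05% ± 1.94 in OSM mice (SD, n = 5) and 6.51% ± 1.31 in PBS mice (SD, n = 6). The sum itself was 131 ± 7.69 and 140.4 ± 13.3 CPM per kb. Coro1b held 50.3% and 51.8%, and Coro1c 37.5% and 33.8%.

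Differences between litters were not used in choosing the family and were tested over all genes in the same fit. None of the 7 members passed (adjusted p from 0.267 to 1.00), against 3 of 17050 genes (0.0176%). At an unadjusted p under 0.05 the count was 1758 of 17050 genes. Among the members Coro1c (edgeR litter test, unadjusted p = 0.00921) and Coro2a (unadjusted p = 0.0412) were under it. Coro2a had reads in only 3 mice. Coro1c had the lowest value among the members. Its mean level was 591 CPM in litter 1, 466 in litter 2 and 473 in litter 3, and all 4 mice of litter 1, at 566 to 615 CPM, were above all 7 mice of the other litters, at 420 to 529 CPM. Of all genes tested 1.52% had litter 1 apart in this way. DESeq2's likelihood ratio test called Coro1c (adjusted p = 0.0261), where it called 7.11% of 13985 genes. The test of whether the OSM difference itself varied between litters was passed by no member (edgeR interaction test, adjusted p from 0.910 to 1.00) and by none of 19902 genes (0%), of which 1190 had an unadjusted p under 0.05. Litter 3 has a single OSM mouse, which limits that test.

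The members differed in how steady they were once litter and treatment were taken out. The residual SD of log2 CPM was 0.105 for Coro1b and 0.133 for Coro1c, lower than in all but 0.821% and 2.40% of genes, whose median was 0.676. Coro2b, Coro1a and Coro7 had residual SDs of 0.437, 0.485 and 0.486, and the scarce Coro6 and Coro2a 1.17 and 1.99. Coro1b and Coro1c were also at percentiles 97.1 and 95.5 of level per length. Their spread was not compared with that of genes of like level. As a description over the 11 mice, in each of which both genes were read in the same library, Coro1a and Coro1b had a residual correlation of -0.599. It was the largest in absolute value of all pairs of members and is named for that. The other pairs ran from -0.37 to 0.49.

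In cells sorted from a tissue, fewer cells of a type and less RNA per cell cannot be told apart, and Coro1a is known from leukocytes. The list of 18 leukocyte markers was dominated by Lcp1 and Laptm5, which held at least 94.2% of its sum in every mouse. Its total ran from 1059 to 1385 CPM in OSM mice and from 859 to 1674 CPM in PBS mice. The other 16 markers summed to 4.12 to 28.8 CPM in OSM mice (median 12.2) and to 0.488 to 97.0 CPM in PBS mice (median 9.52). Ptprc, the gene of the CD45 that the sort excluded, had reads in 5 mice and at most 22. PBS mice 7 and 8 had Coro1a at 43.1 and 46.0 CPM with 0 reads of Ptprc and a sum of the 16 markers of 3.59 and 0.488 CPM. Reads of Coro1a were above the summed reads of these 16 markers in 7 of 11 mice, equal in 1 and below in 3. Near ties are among them, at 1059 against 1058 reads in mouse 3 and 679 against 681 in mouse 9. PBS mice 3 and 4, also high in Coro1a, had the highest sums, 40.2 and 97.0 CPM. In mouse 4 the single marker Lyz2 gave 2140 of the 3100 reads in this sum.

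**Figure D4:**
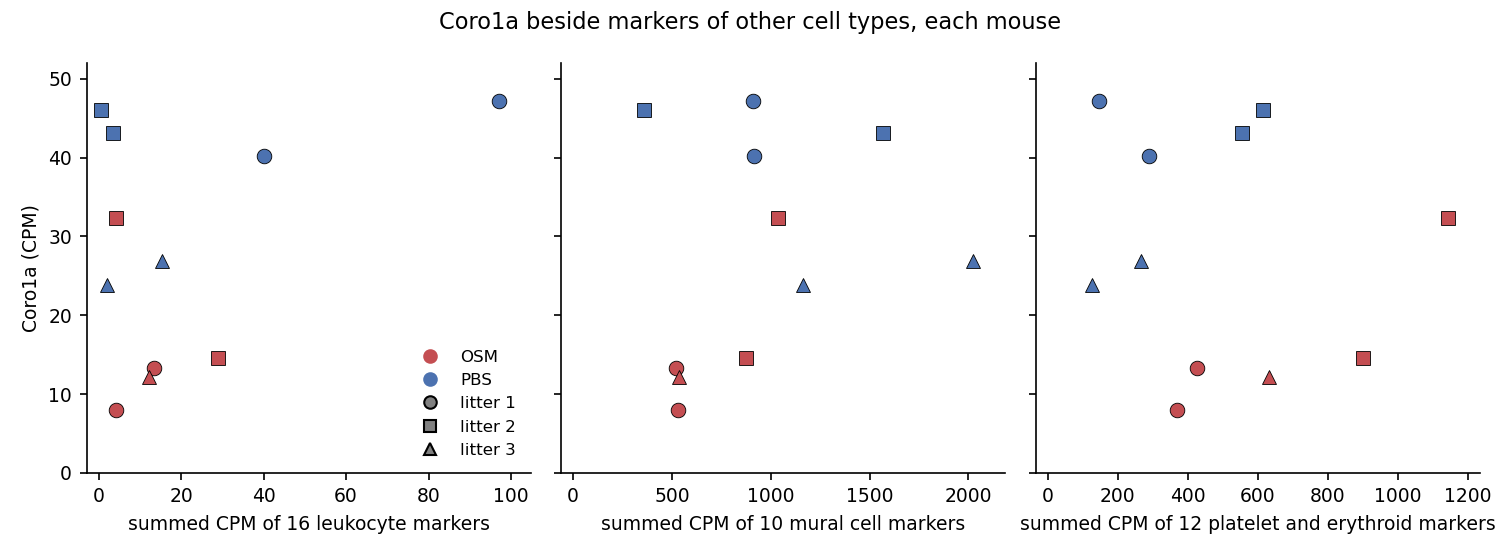
Coro1a in CPM against the summed CPM of 16 leukocyte markers, 10 mural cell markers and 12 platelet and erythroid markers, 1 point per mouse. PBS mice 7 and 8 combine Coro1a above 43.0 CPM with leukocyte sums of 3.59 and 0.488 CPM, and the platelet and erythroid sums of OSM mice run from 370 to 1142 CPM against 127 to 614 CPM in PBS mice.

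Markers of other cell types were summed in the same way, and the sums were not tested. No single marker passed an adjusted p of 0.05 in edgeR's test, where no gene tested did, so this does not set the markers apart. All 10 mural cell markers had a lower fitted level in OSM mice, and the summed list ran from 518 to 1037 CPM in OSM mice and from 360 to 2024 CPM in PBS mice. Rgs5, a pericyte marker, was at 253 ± 106 CPM (SD, n = 5) and 456 ± 245 CPM (SD, n = 6). Of the 8 platelet and erythroid markers that passed the filter, 7 had a higher fitted level in OSM mice. The 5 with an unadjusted p under 0.05 were the hemoglobin genes Hba-a1, Hba-a2, Hbb-bs and Hbb-bt and the heme synthesis gene Alas2. They were named after their values were seen, and 846 of 17050 genes tested were under that p. Hbb-bs was at 389 ± 207 CPM in OSM mice and 187 ± 112 CPM in PBS mice, and Alas2 at 43.8 ± 18.6 and 19.1 ± 8.98 CPM. Pf4, of platelets, was the one marker with a lower fitted level, at 2.11 ± 1.37 and 2.75 ± 2.57 CPM. A group of 9 rod markers summed to 118 to 3389 CPM in OSM mice and 223 to 927 CPM in PBS mice. The OSM mice 5 and 6 of litter 2 had the highest sums there, at 3389 and 1196 CPM, followed by PBS mouse 10 at 927 CPM. The log2 fold change of Coro1a was -1.28 without mouse 5 and -1.63 without mouse 6. Retinal neuron markers summed to 22.1 to 168 CPM in OSM mice and 46.0 to 83.0 CPM in PBS mice, with Snap25 at 20.2 ± 25.2 and 12.3 ± 7.00 CPM and Slc17a6 at 0 in every mouse. Müller glia markers summed to 221 to 496 and 204 to 411 CPM, with Glul at 245 ± 34.3 and 231 ± 41.1 CPM. Over all mice no listed marker separated the groups without overlap. Within litters the sum of the 12 platelet and erythroid markers was higher in OSM mice in each of the 3 litters. It was 426 and 370 CPM against 290 and 147 CPM in litter 1. In litter 2 it was 901 and 1142 against 555 and 614 CPM, and in litter 3 633 against 127 and 266 CPM. This pattern was looked for after the values were seen. The part of these cells in the level of Coro1a was not tested.

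The machinery that coronins act on was described by 49 genes, all of which passed the filter. None was called (0% of all genes), and 31 had a higher and 18 a lower fitted level in OSM mice. An unadjusted p under 0.05 was found for 1 of the 49, against 846 of 17050 genes tested. Their median log2 fold change was 0.05, against -0.01 over all genes tested, which split into 8255 above and 8795 below 0. For the 43 members of the lists with reads in all 11 mice the largest absolute log2 fold change was 0.54.

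Of the 9 subunits of the Arp2/3 complex, which nucleates filament branches, 8 had a higher fitted level in OSM mice (median log2 fold change 0.11). Arpc3 was the most abundant, at 209 CPM per kb and a log2 fold change of 0.09 (SE 0.0751), and Actr2 and Arpc1a had the largest values, 0.26 (SE 0.153) and 0.18 (SE 0.128). Of the 14 activators of the complex 4 were higher and 10 lower (median -0.13). Brk1, a small subunit of the WAVE complex, was the most abundant at 116 CPM per kb and a log2 fold change of 0.11 (SE 0.0828). Wasf1, a WAVE scaffold, had 0 reads in the 5 OSM mice and 1.13 ± 1.46 CPM in PBS mice (SD, n = 6), at least 13-fold higher when OSM is set at 3 reads per library, but reads stood in 4 of the 6 PBS mice. Wasf3 was at 1.64 ± 2.04 CPM in OSM mice and 0.470 ± 1.09 CPM in PBS mice. The median of this list was the same with Wasf1 at its bound.

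All 4 antagonists of branching had a higher fitted level (median 0.15). Arpin, which holds the complex inactive, was the most abundant at 15.7 CPM per kb (log2 fold change 0.08, SE 0.189), and Pick1 and Gmfb had the largest values, 0.50 (SE 0.484) and 0.21 (SE 0.146). Of the 14 genes of the cofilin cycle 9 were higher and 5 lower (median 0.04), led in level by Cfl1, the filament-severing cofilin, at 343 CPM per kb (log2 fold change 0.09, SE 0.0683). Cap2 and Tesk2 had the largest fitted values and were scarce, Cap2 at 0.227 ± 0.330 CPM in OSM mice and 1.56 ± 2.61 in PBS mice, and Tesk2 at 2.696 ± 3.69 and 1.85 ± 1.95 CPM. Of the 8 genes of actin and of monomer binding 6 were higher (median 0.04). Tmsb4x, the thymosin that sequesters actin monomers, had a level of 7253 CPM per kb and a log2 fold change of 0.16 (SE 0.0799), and Pfn2 and Tmsb10 had 0.37 (SE 0.508) and 0.18 (SE 0.133).

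**Figure D5:**
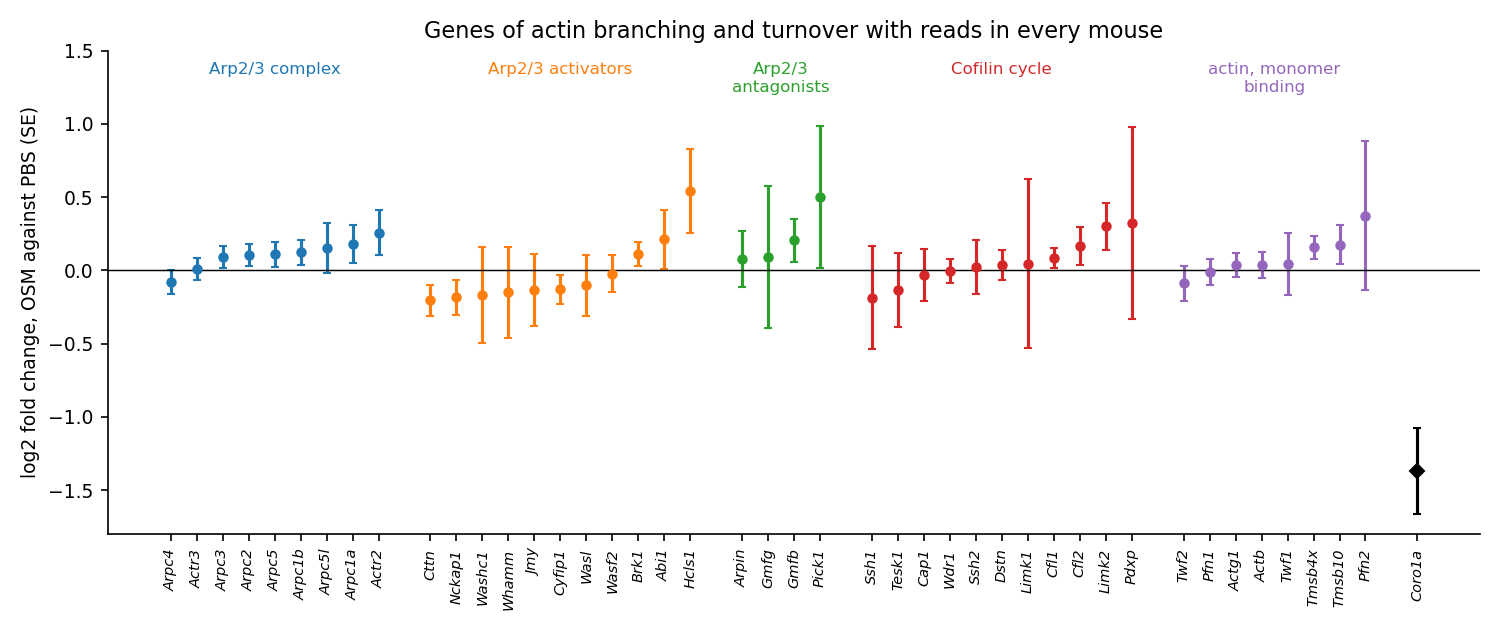
The log2 fold change OSM against PBS, with SE, of the 43 genes of actin branching and turnover with reads in every mouse, by list, with Coro1a at the right. Coro1a is at -1.37, and the 43 genes stay within 0.54 of 0.

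The genes whose level followed Coro1a most closely over the 11 mice were sought after litter and treatment means were removed, which leaves 7 degrees of freedom. They were Fignl1 (Pearson's r = 0.966), D930007J09Rik (0.959), Fcho1 (0.951), Pcdhga1 (0.949) and Slc51a (0.932). Fignl1, an AAA ATPase of homologous recombination, was at 7.48 to 43.4 CPM, while each of the other 4 had 0 CPM in at least 1 mouse. With only litter removed, which keeps the OSM against PBS difference that chose Coro1a, the first 5 genes were Racgap1 (0.936), Gm14253 (0.920), Ube2c (0.914), Nes (0.913) and Ank2 (0.909). None of the first 5 genes was shared between these lists. The single closest gene was Chchd6 for Coro1b (0.952), Gm12250 for Coro1c (0.963), Dnase1 for Coro2a (0.983), Nwd2 for Coro2b (0.969), Gm13717 for Coro6 (0.969) and Ahcy for Coro7 (0.944). Each is the highest value over all genes tested. Gm12250, Dnase1, Nwd2 and Gm13717 had 0 CPM in at least 1 mouse, and Coro2a and Coro6 had reads in only 3 mice each. In each mouse both genes of a pair were read in the same library at the same depth, and no p is given for these correlations.

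On GRCm39 the members lie on 7 chromosomes. Coro1a spans chr7:126298942-126307022 on the minus strand, Coro1b chr19:4198599-4204036 on the plus strand and Coro1c chr5:113980496-114046847 on the minus strand. Coro2a spans chr4:46536937-46602202, Coro2b chr9:62326766-62444662 and Coro7 chr16:4443053-4497768, all on the minus strand, and Coro6 chr11:77351342-77361327 on the plus strand. Exons of Coro1b share 434 bases with Ptprcap on the same strand, a leukocyte gene that had 0 reads in every mouse, and those of Coro1a share 29 bases with Bola2 on the opposite strand. Coro1c shares 372 exon bases with Gm17122, Coro2a 615 with Gm16731, and Coro7 197 with Glis2 and 153 with Dnaja3, all on the opposite strand. Coro2b shares no exon bases with another gene. The library kit does not keep the strand, so reads within such stretches cannot be assigned to a single gene. The authors' counting options leave out reads that fall on several genes, which also bears on the 0 reads of Ptprcap.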

How the data were processed

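RNA of sorted retinal vascular endothelial cells from 11 mice was amplified from poly(A) ends with a low-input kit and sequenced. Per the study's methods the authors aligned reads to GRCm39 with STAR and counted them per GENCODE gene using featureCounts with its default options, which leave out reads that fall on several genes. The deposited counts are whole numbers of reads per gene, not normalized, for 55359 genes, and 610 are absent from the annotation used here (GENCODE M39), which gave symbols and lengths only.

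Treatment and litter came from the labels and the design text. The column headers of the counts of mice 10 and 11 carry the numbers 11 and 12, and each file was used for the sample it is deposited under. Genes were filtered by edgeR (4.0.16 in R 4.3.3) with a count minimum of 10, which left 17050, scaled by TMM and fitted by robust quasi-likelihood with litter and treatment as terms. p-values were adjusted by Benjamini-Hochberg over all genes tested with a threshold of 0.05. Likeness used log2 CPM with a prior count of 2, and levels compared between genes were divided by merged exon length, with 0.01 added in pairs with a 0. The scripts were tested on simulated data. DESeq2 (1.42.0) was an alternative, and others covered filters, scaling, terms, lengths and each mouse or litter left out. Each mouse is a separate animal.

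Named genes were all 7 members, in each partner list the most abundant gene per length and the 2 with the largest absolute fold change, the genes most like each member, and the first marker of each list of other cells, of which 1 is not reported here. The members and lists were chosen with earlier results of these data known. Total reads limit precision least for Coro1b and Coro1c (7893 to 29583 reads per mouse) and most for Coro2a and Coro6 (0 to 92).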

Additional observations from a re-analysis of the deposited data

Results flagged for a closer look

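In 3 of 13 combinations of a coronin gene and a group, 1 mouse lay farther from its group than Dixon's 95% criterion allows. For normally distributed values without ties, chance flags about 1 in 20. The criterion was applied to CPM without a log transform, for which that rate need not hold. Coro1a in OSM mice was flagged for mouse 6 of litter 2, at 32.4 CPM, where the other 4 OSM mice stood at 7.92 to 14.6 CPM. Its Dixon ratio was 0.726, just above the limit of 0.71. Without that mouse the log2 fold change of Coro1a was -1.63. Coro2a in OSM mice was flagged for mouse 2, at 1.39 CPM, and Coro2a in PBS mice for mouse 4, at 2.88 CPM. Both mice are of litter 1, and of the other 9 mice only OSM mouse 5 had reads of Coro2a (2 reads). With 5 of 6 PBS mice at 0, a single mouse with reads meets the criterion by construction. Of the OSM mice 3 of 5 stood at 0 and mouse 5 had 2 reads, so that flag rests on tied values. These flags of Coro2a are not to be set against chance.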

How the results depend on the processing

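Coro1a kept its sign in 22 alternatives, with a log2 fold change of -1.64 to -0.98 (-1.63 to -1.18 without 1 mouse, -0.98 without litter 1) and an adjusted p of 0.000873 to 1.00. Coro1b (-0.26 without litter 1 to -0.06 without litter 2) and Coro7 (0.14 without PBS mouse 7 to 0.45 without litter 1) kept theirs in the 22 alternatives. Coro1c turned to -0.04 without OSM mouse 9 and without litter 3, Coro2b ran from -0.52 without litter 2 to 0.0041 without litter 1 (-0.04 without PBS mouse 3, -0.47 without OSM mouse 5), and Coro2a changed sign in 5 alternatives. Between OSM and PBS, 0 genes were called, 65 without the filter on low counts, 168 by DESeq2 with litter and 88 without it. The members called were then 1 (Coro1a) without the filter and 1 (Coro1a) by DESeq2 with litter, and 0 by DESeq2 without litter (adjusted p of Coro1a 0.0695). Between litters, 3 genes were called, 625 without the filter, 14 with a mean above 10 counts, 109 with at least 10 counts in every mouse, 995 by DESeq2, 0 in PBS mice alone and 0 to 44 without 1 mouse, the highest without PBS mouse 8. DESeq2 called 1 member there (Coro1c). Litter by treatment gave 305 genes without the filter against 0. The cause of these shifts was not tested. The median of the partner genes was 0.04 to 0.10 with other size factors, without the litter term (45 genes), with at least 10 counts in every mouse (43 genes) and without 1 mouse, and other alternatives were not run for it. The list of leukocyte markers without Lcp1 and Laptm5, and the canonical length, were chosen after seeing the data. No paired analysis was possible because the mouse numbers are not shared between the treatments, and litter is already a term. Reads of Coro2a and Coro6 were too few to compare treatments.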
